A study of Mus musculus with 2 samples.

Results

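The glycolytic enzymes here are 10 genes from hexokinase to lactate dehydrogenase: Hk2, Gpi1, Pfkl, Aldoa, Tpi1, Gapdh, Pgk1, Eno1, Pkm and Ldha. No member has the phosphoglycerate mutase step, whose genes Pgam1 and Pgam2 are counted below with other isozymes. The 10 members were taken by symbol, as the genes to which the RefSeq accession of a non-control probe was matched. All 10 were measured on both arrays, among 15495 genes measured in all, through 21 probes of 39429. The set was proposed with the Gapdh difference between these arrays already known, so the differences of its members are a description and support nothing.

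RNA came from whole lung of C57BL6/N mice labelled male and aged 6 weeks, taken 14 days after bleomycin at 1.25 mg/kg given into the trachea. One group was the C57BL6/N strain and the other the same strain carrying an HSP27 overexpression transgene, with 1 one-colour array each. HSP27 is a small heat shock protein encoded by Hspb1. Bleomycin is a drug that injures the alveoli and leaves scar tissue. The labels do not give the promoter or species of the transgene, or whether a sample was 1 animal or a pool, and both groups had bleomycin.

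Glycolysis splits glucose into pyruvate in the cytosol and yields ATP and NADH, and lactate dehydrogenase then turns pyruvate into lactate while restoring NAD+. Many of its genes are known targets of hypoxia-inducible factor 1, which binds a short core motif in their promoters and enhancers. In fibrotic lung, activated fibroblasts and recruited macrophages are known for high glycolytic flux. Gapdh is in addition one of the most widely used reference genes for expression measurements.

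The promoters of the 4 members below show where the core motif lies, in its ACGTG form for Pgk1, Ldha and Hk2 and in its GCGTG form for Gapdh. They are the 250 bases before the annotated start, 5′ to 3′ on the strand of the gene, from RefSeq on GRCm38.p6. They lie at chrX:106186850-106187099 on the plus strand for Pgk1, chr7:46845554-46845803 on the plus strand for Ldha, chr6:82774455-82774704 on the minus strand for Hk2 and chr6:125165774-125166023 on the minus strand for Gapdh. Capitals mark ACGTG or GCGTG read on either strand, so that CACGT and CACGC are the same motifs on the other strand.
Pgk1: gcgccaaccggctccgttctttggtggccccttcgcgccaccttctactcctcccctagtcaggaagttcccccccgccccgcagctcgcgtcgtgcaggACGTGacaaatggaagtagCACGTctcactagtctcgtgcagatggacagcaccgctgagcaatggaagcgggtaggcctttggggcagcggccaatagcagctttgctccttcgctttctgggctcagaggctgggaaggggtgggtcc
Ldha: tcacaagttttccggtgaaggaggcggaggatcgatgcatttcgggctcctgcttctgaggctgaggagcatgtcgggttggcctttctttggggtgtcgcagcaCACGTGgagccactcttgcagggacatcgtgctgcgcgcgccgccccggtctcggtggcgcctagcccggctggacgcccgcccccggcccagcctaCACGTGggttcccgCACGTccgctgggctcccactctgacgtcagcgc
Hk2: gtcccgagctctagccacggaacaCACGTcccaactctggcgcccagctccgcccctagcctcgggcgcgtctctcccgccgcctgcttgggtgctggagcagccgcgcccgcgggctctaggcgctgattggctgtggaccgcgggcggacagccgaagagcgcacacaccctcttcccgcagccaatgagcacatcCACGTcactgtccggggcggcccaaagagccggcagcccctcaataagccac
Gapdh: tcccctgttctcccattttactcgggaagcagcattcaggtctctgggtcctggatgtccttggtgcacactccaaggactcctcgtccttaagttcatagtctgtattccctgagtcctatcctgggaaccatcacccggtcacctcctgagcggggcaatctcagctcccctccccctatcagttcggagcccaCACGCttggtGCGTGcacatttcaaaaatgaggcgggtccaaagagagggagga

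All 10 members matched a promoter in the RefSeq table, and where a gene had several starts the one farthest upstream was read. ACGTG was found in 3 of 10 members, against 20.2% of 12287 promoters of measured genes. Pgk1 held 2 matches, whose first bases lay 150 and 131 bases before the start. Ldha held 5 matches, of which 4 were both strands of the palindrome CACGTG, counted once on each strand. Hk2 held 2 matches, at 226 and 52 bases before the start. With all annotated starts read, 5 of 10 members held the motif, Aldoa and Pkm at an inner start, against 23.2% of measured genes. GCGTG was found in Gapdh, Eno1 and Pfkl at the outermost start, against 41.9% of promoters of measured genes, and Gapdh held 2 matches, whose first bases lay 54 and 44 bases before the start. Either form was thus found at the outermost start in 6 of 10 members, against 52.7% of promoters of measured genes. Ldha held GCGTG as well, at an inner start. A match describes letters in this window and no binding, and enhancers and introns were not searched.

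Before the values, 2 facts of the arrays apply to all of them. Each group was 1 array, so no difference could be set against a spread between animals, no p-value is given, and a comparison is of these 2 arrays. The second is how far the arrays bear out their labels. Hspb1, the mouse gene for HSP27, had 1 probe that read 41040 with the C57BL6/N sample and 53553.5 with the transgenic one, a difference of 0.24 on the log2 scale described below. That is smaller than the difference of most of the enzymes, so this probe does not show a clear overexpression, and whether it reads the transgene is not given in the sources used here. Both samples were labelled male, yet Xist, the RNA of the inactive X chromosome, had 2 probes that read 521 and 330 with the C57BL6/N sample. They read 2.83 and 3.36 with the transgenic sample, not well above background. The Y-linked Ddx3y went from 508 with the C57BL6/N sample to 2437 with the transgenic one (2.11 on the log2 scale), and the Y-linked Eif2s3y from 799.8 to 3338 (1.91). The C57BL6/N array thus held both Xist and Y-linked RNA, which goes against its label as male. The files do not settle whether that sample was mixed, pooled or mislabelled, and its sex and the transgene cannot be told apart in any difference below. The arrays are called C57BL6/N and transgenic after their labels.

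Signal is the processed fluorescence intensity of a probe, unscaled. Where 2 signals are given for a probe, the first is from the C57BL6/N and the second from the transgenic array. A difference is the second minus the first in log2 units after each array's 75th percentile was subtracted (1287 and 1426), and a gene's difference is the mean over its probes. Probes printed repeatedly on these arrays gave an SD of 0.05 for the difference of a single bright spot and 0.15 for a dim one. The scanner software's own error model gave about 10% for the signal of every member probe, or 0.20 for a log2 difference. Both describe measurement error alone.

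All 10 enzymes were above 0, and most lay in the upper part of the range of all genes. Of 10 processing alternatives, 3 put Hk2 below 0. Another, normexp background correction fitted on all spots, turned the direction: 3 of 10 enzymes were then above 0, their median was -0.30 and none was 1.5-fold higher, while the median of all genes was 0.60 and 50.3% of them were 1.5-fold higher. Without the spots whose local background reached their signal, normexp gave a median of 0.39, with 9 of 10 enzymes above 0. That exclusion was added once the data were known. Scaling to single genes is described at the end. The median of the members was 0.38 (1.30-fold), against a median of -0.04 over all 15495 genes, and the members ran from 0.00 for Hk2 to 0.90 for Gapdh. Above 0 lay 10 of 10 members, beside 46% of all genes. At least 1.5-fold higher were 2 of 10 members, Gapdh and Eno1, beside 10.2% of all genes, and 0 were at least 1.5-fold lower, beside 8.31%. With cyclic loess these shares of all genes were 12.5% higher and 6.27% lower, and 3 members were higher, Tpi1 being the third. No member reached 2-fold, which 3.81% of all genes did upward and 1.87% downward. The members were chosen from this comparison, so nothing is read from these shares. Without Gapdh, the other 9 had a median of 0.37.

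**Figure D1:**
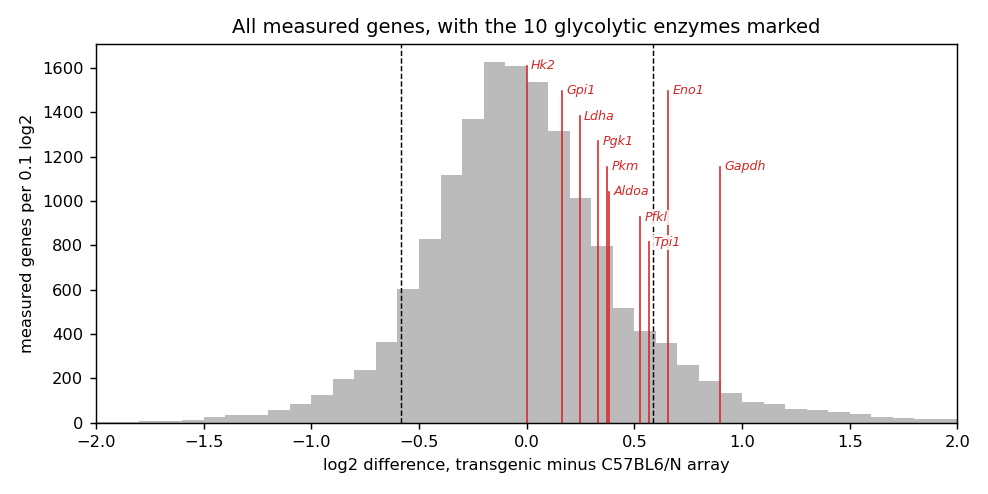
Histogram of the log2 difference (transgenic minus C57BL6/N array, x axis) over all measured genes (y axis, genes per 0.1), with red lines for the 10 glycolytic enzymes and dashed lines at 1.5-fold. Hk2 sits at 0 and the other members right of it, and 2 lie past the 1.5-fold line; 142 genes beyond 2 in either direction lie outside the plot.

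In the preparatory steps, which spend ATP to make a sugar with 2 phosphates, differences grew from none at hexokinase to moderate at phosphofructokinase. Hk2, the inducible hexokinase that traps glucose as glucose 6-phosphate, read 1210.0 and 1341. After scaling its difference was 0.00, below the repeat-spot SD. Gpi1, the isomerase that makes fructose 6-phosphate, was measured by 3 probes. They read 33003, 33048 and 37873 with the C57BL6/N sample, and 41348, 43037 and 44577 with the transgenic one. Its differences ran from 0.09 to 0.23 with a mean of 0.17 (1.12-fold), so the 3 probes gave nearly the same value. Pfkl, the liver-type subunit of phosphofructokinase, which commits sugar to the pathway, read 831 and 1326, a difference of 0.53 (1.44-fold). Pfkl and Tpi1 lay just under the 1.5-fold line, which is at 0.58 on the log2 scale, and Eno1 just above it.

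The 2 enzymes that split the sugar and interconvert its parts were above 0 and short of 1.5-fold. Aldoa, the aldolase of muscle and most other tissues, read 86064 and 124416, a difference of 0.38 (1.30-fold). Tpi1, which interconverts both triose phosphates, had 2 probes. The dimmer one read 1209 and 2100 (0.65) and the brighter one 9048 and 14059 (0.49), with a mean of 0.57 (1.48-fold). Both Tpi1 probes thus gave similar differences at signals far apart.

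Gapdh, which oxidises glyceraldehyde 3-phosphate and makes NADH, had the largest difference of the set and the least agreement among probes. Its mean difference was 0.90 (1.86-fold) over 7 probes, with an SD of 0.55 between probes. In order of brightness on the C57BL6/N array, the probes read 1288, 2711, 14352, 17109, 22366, 38771 and 95756. On the transgenic array the same probes read 4641, 8913, 20030.4, 34956, 45372, 64912 and 133924. All 7 were thus higher on the transgenic array before scaling, and all stayed higher after it.

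The size of the Gapdh difference depended on the probe. The 2 dimmest probes had differences of 1.70 and 1.57, the middle ones 0.33, 0.88 and 0.87, and the 2 brightest 0.60 and 0.34. At least 1.5-fold higher were 5 of 7 probes and at least 2-fold higher 2 of 7. The range of 1.37 was many times the repeat-spot SD of 0.05. Of 660 genes with at least 3 usable probes, 23 (3.48%) had a range this wide, and the median range was 0.45. A range widens with the number of probes, and of the 24 genes with at least 5 usable probes, 3 (12.5%) had a range this wide, with a median of 0.54. The excess of the dimmest over the brightest probe was 1.37 for Gapdh and had a median of 0.04 over the 660 genes and 0.11 over the 24. By the brightest Gapdh probe alone, the gene was at 0.34, under the 1.5-fold line and close to the median of the set. The files hold no probe sequences, and the position of each probe in the transcript is not analysed here. The RefSeq table holds 3 pseudogenes whose symbols derive from Gapdh, and copies under other names were not counted. Signal from near-identical copies cannot be told apart from that of the gene.

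**Figure D2:**
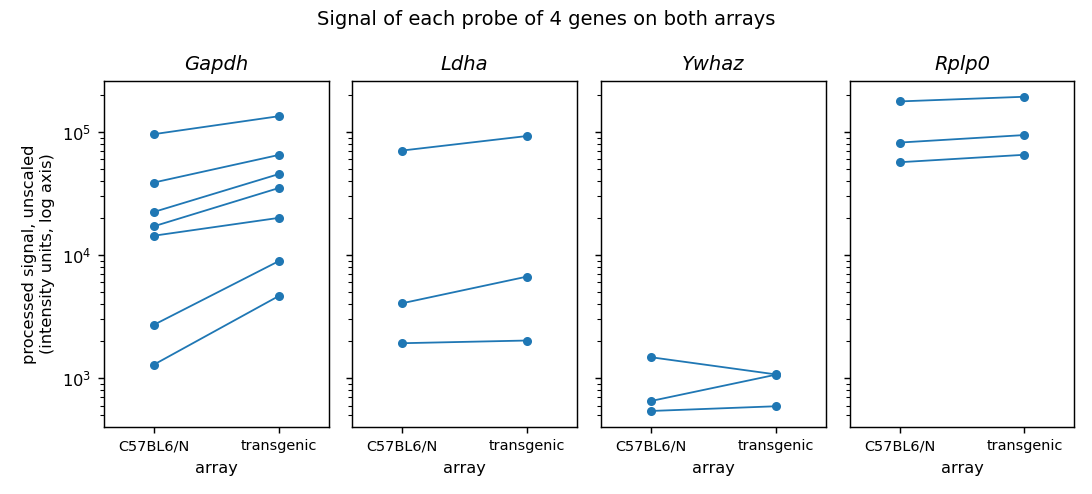
Processed signal (y axis, log scale, unscaled) of each probe on the C57BL6/N and transgenic arrays for Gapdh (7 probes), Ldha, Ywhaz and Rplp0 (3 probes each); a line joins the 2 readings of 1 probe. The 2 lowest Gapdh lines are the steepest, the 3 Rplp0 lines run parallel, and the Ywhaz lines converge.

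Other genes with several probes differed in how well these matched. Ldha, which makes lactate from pyruvate, was measured by 3 probes that read 1926, 4067 and 70580.1 with the C57BL6/N sample, and 2025, 6693 and 92595 with the transgenic one. Their differences were -0.08, 0.57 and 0.24, with a mean of 0.25 (1.19-fold), and the dimmest was the sole member probe of 21 below 0. Among reference genes, the 3 probes of Ywhaz, a 14-3-3 adaptor protein, were at -0.02, 0.56 and -0.61. The 3 probes of Rplp0, a ribosomal stalk protein, were within a range of 0.08, and those of Rpl13a, another ribosomal protein, within 0.05.

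Of the members in the payoff steps after Gapdh, in which ATP is made, Eno1 alone passed 1.5-fold. The mutase step between Pgk1 and Eno1 has no member, and its gene Pgam1, given below, also passed 1.5-fold at 0.61. Pgk1, which makes the first ATP of this phase, read 12529 and 17464, a difference of 0.33 (1.26-fold). Eno1, the widely expressed enolase, read 15911 and 27799, a difference of 0.66 (1.58-fold), the second largest of the set. Pkm, which makes pyruvate and the last ATP, read 10323 and 14807, a difference of 0.37 (1.29-fold). Each of these rests on 1 probe, as do Hk2, Pfkl and Aldoa, so for 6 of 10 members the spread between probes is not known. The files do not say which splice forms the Pkm probe reads. Counted by symbol in the same way, the RefSeq table holds 3 pseudogenes each for Pgk1 and Ldha, and 2 for Aldoa.

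**Figure D3:**
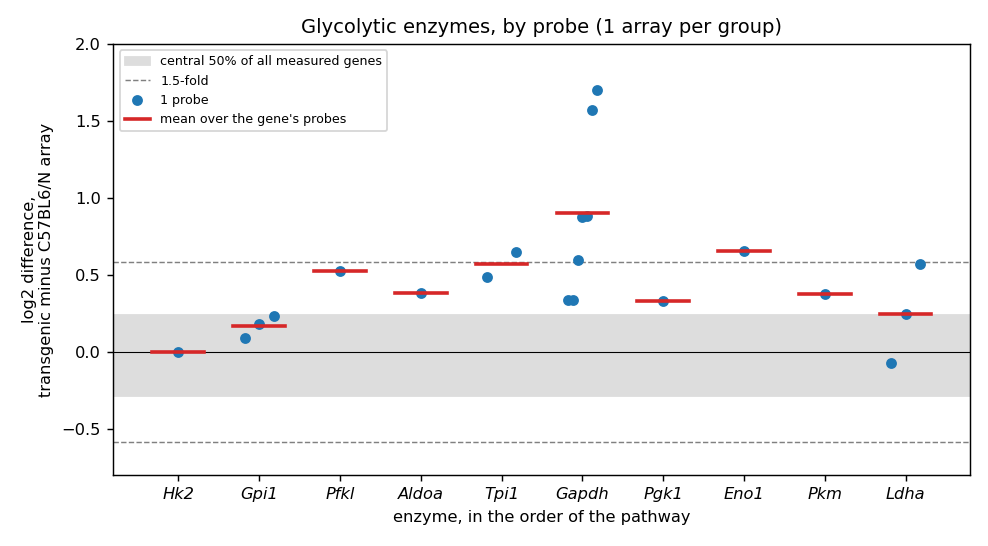
Log2 difference (transgenic minus C57BL6/N array, y axis) of each probe (blue points) and the mean over probes (red bars) for the 10 enzymes in pathway order (x axis), with the central 50% of all measured genes in grey and 1.5-fold as dashed lines. Gapdh probes spread from 0.33 to 1.70, whereas the 3 Gpi1 probes lie between 0.09 and 0.23.

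Both forms of the promoter motif were set against the differences. The 3 members with ACGTG at the outermost start were at 0.33 (Pgk1), 0.25 (Ldha) and 0.00 (Hk2). The 3 members with GCGTG at that start were at 0.90 (Gapdh), 0.66 (Eno1) and 0.53 (Pfkl). By the outermost start, the median of the 6 members with either form was 0.43, and that of the 4 without was 0.38. Of these 4, Aldoa and Pkm held ACGTG at an inner start. Ldha, counted above with ACGTG, also held GCGTG at an inner start. The split thus depends on the start read. Over the 12287 measured genes with a promoter in the table, the median was -0.03 with ACGTG and -0.04 without it, and -0.04 both with and without GCGTG. These values are a description of 10 promoters, and nothing is read from them about the factor.

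Of other isozymes of the members' steps together with the mutases Pgam1 and Pgam2, 5 genes passed 1.5-fold. Of 19 listed, 14 were measured on both arrays. Their median was 0.42, and the 5 past 1.5-fold were all upward, beside 10.2% of all genes. Pgam1, the widely expressed mutase between Pgk1 and enolase, read 14229.6 and 23985, a difference of 0.61. Pgam2, the muscle form, was at 1.85 from signals of 121 and 485. The neuronal enolase Eno2 was at 0.76, the muscle enolase Eno3 at 0.28, the brain aldolase Aldoc at 0.43, and the phosphofructokinase subunits Pfkm and Pfkp at 0.05 and -0.08. Ldhb, the lactate dehydrogenase subunit of heart, was at -0.17, where Ldha was at 0.25. Hk1 and Hk3 were at 0.31 and 0.47, where Hk2 was at 0.00, and the lowest was Hkdc1 at -0.41.

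Of 14 measured transporters of glucose and lactate, 4 were at least 1.5-fold higher, beside 10.2% of all genes, and 0 lower, and of 13 regulators none passed in either direction. The transporters had a median of 0.45, with 11 of 14 above 0. Slc2a1, the basal glucose transporter GLUT1, was at 0.78 (2261 and 4300.3). Slc2a4, the insulin-responsive transporter of muscle and fat, was at 1.63, and Slc2a5, a fructose transporter, at 1.71 from signals of 15.4 and 56.1. The lactate exporter Slc16a3 was at 0.49 and Slc16a7 at 0.65, while Slc16a1 was at 0.07, Slc2a8 at -0.05, Slc2a3 at -0.07 and the urate transporter Slc2a9 at -0.41. All 13 regulators, which include the kinases Pfkfb1 to Pfkfb4 that set the level of a phosphofructokinase activator and the pyruvate dehydrogenase kinases Pdk1 to Pdk4, lay between -0.35 and 0.26, with a median of 0.09.

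Neighbouring routes of sugar metabolism had lower medians than the glycolytic enzymes, though single genes in them differed as much. The 8 genes of pyruvate entry into mitochondria had a median of 0.05, with 0 past 1.5-fold in either direction. Of 7 genes of the pentose phosphate pathway, which branches from glucose 6-phosphate and makes NADPH, 1 was at least 1.5-fold higher, Pgls at 0.76. G6pdx was at 0.49 and Pgd at 0.46, 5 of 7 lay above 0, and the lowest was Rpe at -0.37. The median of these 7 genes was 0.12. Of 9 glycogen genes 1 was higher, the phosphorylase Pygb at 0.77, with a median of 0.05. Of all genes, 10.2% were at least 1.5-fold higher.

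Genes of the hypoxia pathway outside glycolysis went both ways. Their median was 0.01 over 18 genes, of which 4 passed 1.5-fold upward and 2 downward, beside 10.2% and 8.31% of all genes. Ankrd37 was at 1.46, and the HIF prolyl hydroxylase Egln3 was at 1.28 from dim mean signals of 21.3 and 57.3. The angiogenic factor Vegfa was at -1.08 and the collagen prolyl hydroxylase P4ha1 at -0.84. The transcription factor subunits Hif1a and Epas1 were at 0.48 and -0.30.

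**Figure D4:**
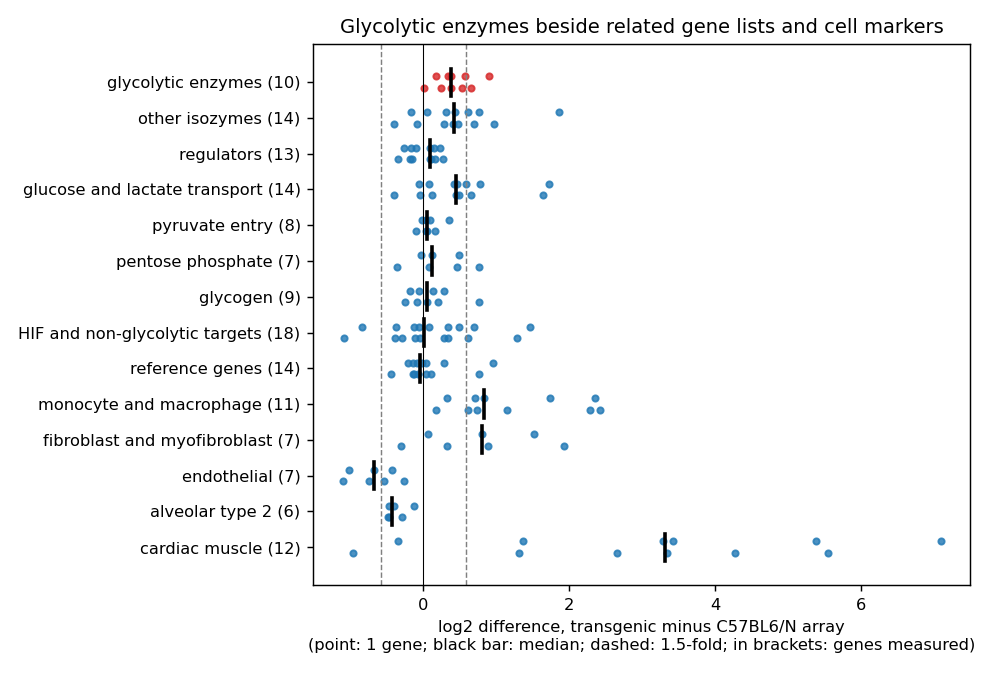
Log2 difference (transgenic minus C57BL6/N array, x axis) of every measured gene (points) of 14 lists (y axis, number measured in brackets), with the median as a black bar and 1.5-fold as dashed lines. The glycolytic enzymes (red) centre on 0.38, close to the other isozymes and the transporters, while reference genes centre on -0.05 and cardiac muscle markers on 3.31.

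Markers of several cell types differed between the same 2 arrays, where 10.2% of all genes were at least 1.5-fold higher and 8.31% lower. In bulk lung, fewer cells of a type and less RNA per cell cannot be told apart. Of 16 cardiac muscle markers, 12 were measured on both arrays, with 10 at least 1.5-fold higher and 1 lower, and 4 more passed the background limit with the transgenic sample only. Their summed level, relative to the 75th percentile, was 6.73 with the C57BL6/N sample and 38.1 with the transgenic one. Of 11 measured monocyte and macrophage markers, 9 passed 1.5-fold upward and 0 downward, with sums of 24.5 and 59.7, among them Spp1 at 2.29 and Arg1 at 2.35. Of 7 fibroblast markers, 4 were higher and 0 lower (sums 143 and 230.3).

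Airway basal markers were higher on the transgenic array, as were some of fat, and a part of the endothelial markers was lower. Of 10 adipose markers 5 were measured on both arrays, 3 of them higher and 0 lower (sums 0.521 and 19.9), with Adrb3 at -0.51. Most of the second sum came from Cfd, whose 1 probe read 30.3 and 26422. A further 4 adipose markers were on the transgenic array alone. All 6 measured basal airway markers were higher (sums 0.602 and 4.74). Of 7 endothelial markers 4 were lower and 0 higher (sums 105 and 67.9). Of 5 measured alveolar type 1 markers 2 were lower and 0 higher (median -0.49), Cav1 at -1.08 and Hopx at -0.63. All 6 alveolar type 2 markers were below 0, between -0.49 and -0.14, with none past 1.5-fold. The surfactant gene Sftpc read 448223 and 376982, so both samples held lung RNA. Markers of heart, fat and basal airway differed between these samples as given above, so the label does not settle whether they were alike in tissue. Skeletal muscle markers were higher in 3 of 6 measured and lower in 0, and 2 more passed the background limit with the transgenic sample only. The part of these cell types in the differences of the glycolytic enzymes was not tested.

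Gapdh was set against the other common reference genes, since a gene used as a reference is taken to be equal between samples. Of 14 measured, 11 lay within 0.3 of 0 and 2 were at least 1.5-fold higher, beside 10.2% of all genes. Among the 11, Ywhaz was at -0.02 as the mean over probes that ran from -0.61 to 0.56. Actb, the cytoplasmic actin, read 306867 and 311821, a difference of -0.13. Ppia, a prolyl isomerase, read 212561 and 213062 (-0.14), and Hprt, a purine salvage enzyme, 12654 and 13373 (-0.07). Tbp, the TATA-binding protein, was at 0.04 and Sdha, a respiratory chain subunit, at 0.11. The lysosomal glucuronidase Gusb was at 0.96, from 3465 and 7461, and Tfrc, the transferrin receptor, was lowest at -0.44. Gapdh, at 0.90, was above 13 of these 14 genes.

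Dividing both arrays by their own Gapdh value, as the mean over its 7 probes, in place of the 75th percentile shifted all differences downward by the 0.90 of Gapdh, so what follows is set by that value. At least 1.5-fold lower were then 12348 genes (79.7%), against 1287 before, and at least 1.5-fold higher 253 (1.63%), against 1582. The median of the glycolytic enzymes became -0.52. The shift depended on the probe: by the brightest Gapdh probe alone, a choice made after the values were seen, 4433 genes (28.6%) were lower, 697 (4.50%) were higher and the median of the enzymes was 0.04. Scaled to the mean of the 7 probes, Actb was 2.03-fold lower and Ppia 2.06-fold lower. Col1a1, a main collagen chain of scar tissue, went from 0.80 to -0.10, and the smooth muscle actin Acta2 from 1.51 to 0.61. With Actb as the reference, 830 genes were at least 1.5-fold lower and the median of the enzymes was 0.50, and with Ppia 769 and 0.52. Gapdh was not alone in this: with Gusb 82.8% of genes were lower and the median of the enzymes was -0.58, and with B2m, the light chain of MHC class I (0.28), 23.9% and 0.10. The gap between the median of the enzymes and that of all genes is the same 0.42 under any single-gene scaling, since such scaling shifts all genes equally.

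**Figure D5:**
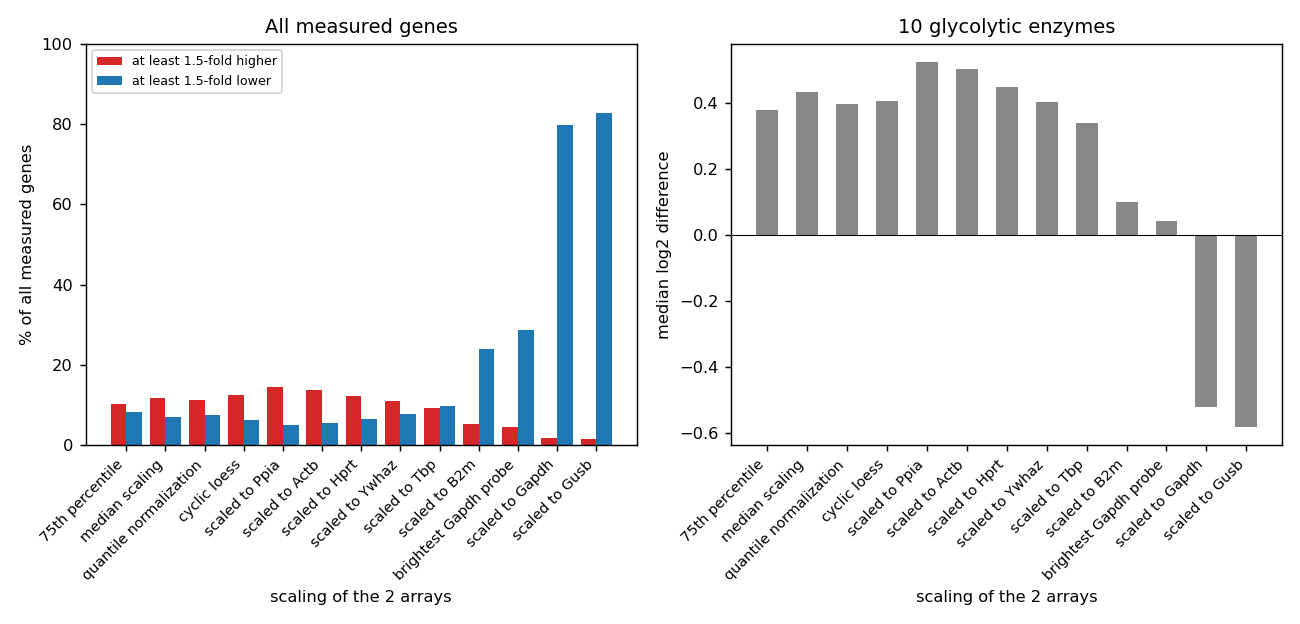
Left, share of all measured genes (y axis, %) at least 1.5-fold higher (red) or lower (blue) in the transgenic array under scaling to the 75th percentile, 3 other scalings over all probes, and single genes (x axis); right, median log2 difference of the 10 glycolytic enzymes under the same scalings. The median of the enzymes was below 0 with Gapdh (-0.52) and Gusb (-0.58), at 0.04 with the brightest Gapdh probe and 0.10 with B2m, and between 0.34 and 0.52 under the others.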

How the data were processed

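Intensity was measured per spot on 2 one-colour arrays, 1 per group. Per the file headers, the deposited intensities came from Agilent Feature Extraction 11.5.1.1, with background subtracted and trends removed within an array and no normalization between arrays. The deposited table of the series equalled the processed signal within 0.1% for all 39030 probes with 1 spot.

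Outlier spots were left out, spots of a probe averaged on the log2 scale, and each array's 75th percentile over non-control probes subtracted. Usable probes were well above background in at least 50% of spots on both arrays and unsaturated. Probes were named by RefSeq accession without version (GRCm38.p6 table, names only): 27508 of 39429 (69.8%) had a symbol, and 26387 probes were usable. Well above background were 69.3% and 69.4% of probes, and no spot was saturated. Every value comes from a single array, which limits precision. For a gene well above background on 1 array, the bound was taken against that array's partner: its lowest signal above background or the dim probe itself, whichever was higher.

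The members, the 21 other lists and the tests were chosen with earlier results of these data known. Named were all members, isozymes of their steps, the mutases Pgam1 and Pgam2, reference genes, and up to 2 highest and 2 lowest genes past 1.5-fold of other lists. Genes named beyond that, such as Slc2a1, Slc16a3, Hif1a, Spp1, Sftpc and Ddx3y, were chosen after their values were seen. Some genes of the lists count in them but are not reported here by name. No set test was run. The steps were tested on simulated data over 15495 genes (transgenic against C57BL6/N), where genes simulated at a log2 difference of 1 had a median of 1.00. Alternatives covered scaling, background, dim probes, outliers, the summary over probes and the deposited table. Tools were Python 3.11.15, numpy 2.4.6, pandas 2.3.3, matplotlib 3.10.9, R 4.3.3 and limma 3.58.1 (normexp, quantile, cyclic loess).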

Additional observations from a re-analysis of the deposited data

How the results depend on the processing

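Apart from single-gene scaling and normexp on all spots, 10 alternatives kept the median of the enzymes between 0.35 and 0.43, the highest with median scaling (0.43). Past 1.5-fold lay 1 to 3 enzymes upward and 0 downward, with Tpi1 added under median, quantile and loess scaling. With the brightest probe per gene 1 enzyme was higher, Eno1, and Gapdh was at 0.34. Hk2 lay between -0.04 and 0.06. The counts over all genes were 2526 higher and 2080 lower with no filter on dim probes, and 986 and 682 with normexp without spots whose local background reached their signal, an alternative added once the data were known. Without that exclusion, normexp gave a median of -0.30 for the enzymes, 0 higher and 1 lower, with 7795 genes higher and 2972 lower, Eno1 at -0.21 and the fibroblast list at -0.018. Its fitted noise SD was 2203 on the transgenic array, where 6 spots had such background, and 41.0 on the other. Median scaling moved the share of genes above 0 from 46% to 51.7%, and cyclic loess to 53.0%.

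Scaled to Gapdh, the median of the enzymes was -0.52, with 0 higher, 3 lower and Eno1 at -0.24, Gapdh being 0 by construction, and 253 genes were higher and 12348 lower. Scaled to the brightest Gapdh probe alone, also added once the data were known, the median was 0.042, with 0 enzymes past 1.5-fold, and 697 genes were higher and 4433 lower. Scaled to Gusb, the median was -0.58, with 0 higher, 5 lower, Gapdh at -0.060 and Eno1 at -0.30. Scaled to Actb it was 0.50, with 4 enzymes higher and 830 genes lower. Scaled to Ppia it was 0.52, with 4 enzymes higher and 769 genes lower. Scaled to Hprt it was 0.45, with 4 higher, and to B2m 0.10, with 1 higher. With Ywhaz it was 0.40 and with Tbp 0.34. No paired analysis was possible because each group had 1 sample. Every enzyme was well above background on both arrays. Their direction still depended on the background correction, since normexp on all spots put their median at -0.30. Having 1 array per group was a further limit.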

Other observations

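Of 5 measured neutrophil markers, 0 were at least 1.5-fold higher and 1 was lower, the chemokine receptor Cxcr2 at -1.28. Of 6 proliferation markers 0 were higher and 1 was lower, Mki67 at -0.77. Of 3 measured erythroid markers 1 was higher, the haemoglobin chain Hba-a1 at 0.69, and 0 were lower. Of 4 measured genes of gluconeogenesis, which runs glycolysis in reverse, none was past 1.5-fold, and Pck1, also a fat cell gene, passed the background limit with the transgenic sample only, at least 54.0-fold higher.

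The difference between arrays did not drift with signal over genes as a whole. In 10 groups of genes of rising mean signal, the median difference ran from -0.06 to -0.02, and it was -0.03 in the brightest group, which held 7 of the 10 glycolytic enzymes. In that group 5.23% of genes were at least 1.5-fold higher and 5.23% lower.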
